A study of Mus musculus with 4 samples.

Results

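A total of 181 of 35682 cells from CD45+ sorts of liver carried *Treml4* or *Ace* transcripts together with the myeloid gene *Lyz2* and little or no *Ly6c2*, a combination chosen to mark nonclassical monocytes. The rule asked for at least 2 *Lyz2* UMIs (unique molecular identifiers, 1 per counted transcript) and at least 1 UMI of *Treml4* and *Ace* together. It allowed at most 1 UMI each of *Ly6c2*, *C1qa* and the *Cd3* chains together, and none of *Cd79a*, *Kdr* or *Clec4f*. It found 93 of 17509 cells in the tdTomato+ library (0.531%, exact 95% interval 0.429 to 0.650) and 88 of 18173 cells in the tdTomato- library (0.484%, 0.389 to 0.596). They made up 4.50% and 4.63% of the cells with at least 2 *Lyz2* UMIs. Classical monocytes, taken with at least 2 *Ly6c2* and 1 *Ccr2* UMIs and the same exclusions, numbered 183 and 231. *Treml4* and *Ace* were not limited in them. The cells were thus chosen by their own UMI counts of these genes, and the levels of the genes in the rule are given as a description.

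The cells came from the livers of mice with the alleles *Stab2-CrexERT2* and *R26-LSL-tdT*, taken at an age of 2 months, in which *Stab2*-driven Cre, activated by tamoxifen at E9.5, leaves tdTomato in a cell and all its descendants. The labels give the genotype of every sample as S2 and the treatment as no, and the study's methods give the tamoxifen. CD45+tdTomato+ cells were processed as batch 1. The comparison cells, labelled CD45+ liver cells and described in the design as CD45+tdTomato-, were batch 2. Both carry the same alleles, so the *Stab2* locus holds the Cre cassette in both. With 1 gene expression library for each sort, sort and batch cannot be told apart, no difference between libraries has a replicate check, and no p-value is given. The number of animals is not given in the sources used here. *Stab2* is a gene of liver sinusoidal endothelium. No tdTomato sequence is among the 33696 genes counted, so the sort cannot be checked from the counts.

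Monocytes of the mouse fall into a classical form, with high Ly6C, which leaves the bone marrow through CCR2 and enters inflamed tissue, and a nonclassical form, with low Ly6C and high CX3CR1, which crawls along the inner wall of vessels and takes up debris there. Nonclassical cells arise largely from classical ones, depend on the nuclear receptor NR4A1 and on C/EBPβ, and receive survival signals through CSF1R. TREML4 is a receptor of the TREM family, described in the mouse on nonclassical monocytes, on splenic macrophages and on dendritic cells that cross-present antigen. ACE, the angiotensin-converting enzyme, trims peptides and is a known transcript of nonclassical monocytes as well as of endothelium.

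Both genes of the rule are shown here by the 250 bases before their RefSeq start (GRCm38.p6, plus strand), together with 3 genes that stood high in the monocyte-like cells described below. *Treml4* (ENSMUSG00000051682) lies at 17:48264295-48275360 and *Ace* (ENSMUSG00000020681) at 11:105967945-105989964, both on the plus strand (GRCm38, GENCODE M21). Capitals mark matches to AGAGGAA or GAGGAAGT, purine-rich cores bound by the myeloid factor PU.1, to the composite PU.1 and IRF core (EICE) or to the interferon response core (ISRE), on either strand. AGAGGAA and GAGGAAGT share the letters GAGGAA and may overlap. The 3 further genes are all among those with AGAGGAA, which 5 of the 11 leading genes searched held, so the windows shown do not stand for all 11.
Treml4, 17:48264045-48264294: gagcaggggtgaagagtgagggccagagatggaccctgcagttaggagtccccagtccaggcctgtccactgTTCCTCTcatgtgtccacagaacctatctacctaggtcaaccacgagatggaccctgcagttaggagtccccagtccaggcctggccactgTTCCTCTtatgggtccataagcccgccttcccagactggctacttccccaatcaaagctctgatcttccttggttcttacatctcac
Ace, 11:105967698-105967947: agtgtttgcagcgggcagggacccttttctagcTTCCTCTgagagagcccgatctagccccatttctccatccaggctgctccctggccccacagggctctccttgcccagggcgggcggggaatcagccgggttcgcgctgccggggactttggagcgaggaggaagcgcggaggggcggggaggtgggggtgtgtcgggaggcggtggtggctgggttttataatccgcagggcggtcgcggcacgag
Fcgr4, 1:171018676-171018925: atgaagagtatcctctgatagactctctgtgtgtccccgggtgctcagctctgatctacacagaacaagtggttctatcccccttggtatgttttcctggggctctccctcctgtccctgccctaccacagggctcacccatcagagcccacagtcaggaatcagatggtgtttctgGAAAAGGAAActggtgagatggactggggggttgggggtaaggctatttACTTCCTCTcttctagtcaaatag
Slamf9, 1:172475110-172475359: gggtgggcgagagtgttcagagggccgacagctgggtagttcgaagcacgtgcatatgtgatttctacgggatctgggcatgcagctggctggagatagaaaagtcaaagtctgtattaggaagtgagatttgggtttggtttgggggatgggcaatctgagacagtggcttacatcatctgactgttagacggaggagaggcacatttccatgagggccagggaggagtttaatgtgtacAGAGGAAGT
Lilra5, 7:4237504-4237753: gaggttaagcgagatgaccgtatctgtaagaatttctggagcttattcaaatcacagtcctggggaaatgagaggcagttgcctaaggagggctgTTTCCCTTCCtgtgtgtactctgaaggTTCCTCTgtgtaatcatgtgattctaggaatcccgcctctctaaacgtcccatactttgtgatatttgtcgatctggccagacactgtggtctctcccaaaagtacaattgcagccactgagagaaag
The *Treml4* window held a stretch of 40 bases in 2 copies, starting at positions 26 and 117, and each copy was followed by a TTCCTCT match, at positions 73 and 164. The *Ace* window held 1 match to the same letters, at position 34.

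The cells were not of 1 kind. Of the tdTomato+ cells, 38 of 93 (40.9%, 30.8 to 51.5) held at least 1 UMI of the dendritic genes *Flt3*, *Xcr1*, *Clec9a*, *Siglech* or *Cd209a*, and of the tdTomato- cells 45 of 88 (51.1%, 40.2 to 61.9) did. Another 7 tdTomato+ cells (7.53%) and 16 tdTomato- cells (18.2%) had no such UMI but at least 10 UMIs of the neutrophil genes *S100a8* and *S100a9*. That left 48 tdTomato+ (51.6%, 41.0 to 62.1) and 27 tdTomato- cells (30.7%, 21.3 to 41.4), called the remaining cells below. Leaving out cells with a dendritic UMI and cells with neutrophil UMIs were each listed as alternatives, and their combination was added after the values had been seen. The remaining cells had a median of 8341 tdTomato+ and 8647 tdTomato- UMIs, the cells with a dendritic UMI 24083 and 28452, and the cells with neutrophil UMIs 3739 and 3731. Depth therefore differed between the 3 kinds of cell, and the chance of catching 1 dendritic UMI grows with depth. A dendritic UMI was not particular to the rule-selected cells. Of the classical monocytes, 43 of 183 tdTomato+ and 66 of 231 tdTomato- cells also held one.

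In the cells with a dendritic UMI, the genes that set type 1 conventional dendritic cells apart were abundant. *Xcr1*, the chemokine receptor of these cells, reached 569 CPM (the gene's share of all UMIs summed over the cells, in the usual scaling) in 29 of 38 tdTomato+ cells and 560 CPM in 38 of 45 tdTomato- cells. *Clec9a*, a receptor for dead cell material, reached 521 and 495 CPM. *Irf8*, the transcription factor these cells need, stood at 1718 and 1866 CPM, against 149.8 and 120.2 CPM in the remaining cells. *H2-Aa*, an MHC class II chain, stood at 10903 CPM in the tdTomato- cells with a dendritic UMI, against 3578 CPM in the remaining tdTomato- cells. *Itgae* at 265.3 and 196.4 CPM and *Cd207* at 96.3 and 139.1 CPM, both found in subsets of this lineage, were at 0 and 0 CPM and at 0 and 3.64 CPM in the remaining cells. The dendritic genes used for the split are at 0 in the remaining cells by construction, but *Irf8*, *H2-Aa*, *Itgae* and *Cd207* were not used for it.

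Within the rule-selected cells, *Treml4* and *Ace* were shared out unequally between these kinds. *Treml4* stood at 534.8 CPM (467.2 to 609.5) in the remaining tdTomato+ cells and 233.2 CPM (179.6 to 297.7) in the remaining tdTomato- cells, and at 92.0 and 146.5 CPM in the cells with a dendritic UMI. *Ace* stood at 701.2 CPM (623.5 to 786.0) and 488.2 CPM (409.0 to 578.2) in the remaining cells, and at 23.5 and 21.6 CPM in the cells with a dendritic UMI. The ratio of remaining to dendritic cells was thus far larger for *Ace* than for *Treml4* in both libraries. This holds partly by construction, since a cell without *Ace* could enter only through *Treml4*. *Ace* was counted in 6 of 38 and 2 of 45 cells with a dendritic UMI. Another 34 tdTomato+ and 39 tdTomato- cells with a dendritic UMI met all else in the rule but had neither gene. The levels and shares here do not cover them. Kupffer cells, liver macrophages taken with at least 2 UMIs each of *Clec4f* and *C1qa*, also carried *Treml4*, at 190.8 and 188.3 CPM, with *Ace* at 0.766 and 0 CPM. Of the cells in which only *Treml4* was counted, 32 of 45 tdTomato+ (71.1%) and 43 of 62 tdTomato- cells (69.4%) held a dendritic UMI. Of the cells with both genes, 3 of 41 and 2 of 18 did, and 38 and 14 were among the remaining cells. Of the cells with *Ace* alone, 3 of 7 and 0 of 8 held one.

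The mixture was also laid out by single cells. *Xcr1*, *Clec9a* and *Flt3* were used for the split and are in the dendritic sum below. The remaining cells therefore lie low on that sum partly by construction. The plot of single-cell sums sets 8 dendritic genes (*Xcr1*, *Clec9a*, *Cadm1*, *Batf3*, *Flt3*, *Itgae*, *Wdfy4*, *Tlr3*) against 12 nonclassical genes (*Cx3cr1*, *Nr4a1*, *Spn*, *Itgal*, *Itgax*, *Fcgr4*, *Eno3*, *Pglyrp1*, *Ear2*, *Adgre4*, *Cd36*, *Fabp4*). More than 10 per 10000 UMIs of the dendritic genes was reached by 30 of 93 tdTomato+ and 39 of 88 tdTomato- cells. Of these, 22 tdTomato+ and 19 tdTomato- cells stayed at or under 10 for the nonclassical genes, and 8 and 20 exceeded it for both sums. These 8 and 20 cells lay near the line for the nonclassical genes, between 10.3 and 20.3 per 10000. Some of the 12 genes are not particular to monocytes here. *Itgax*, *Cd36*, *Itgal* and *Nr4a1* were counted in 32, 30, 33 and 27 of 38 tdTomato+ cells with a dendritic UMI. In the tdTomato- library they were counted in 41, 37, 39 and 40 of 45. The other genes of the sum were counted in fewer of these cells. Which genes brought the 8 and 20 cells over the line was not tested. The nonclassical sum alone exceeded 10 in 60 tdTomato+ and 45 tdTomato- cells, and neither sum did in 3 and 4. Of the cells with a dendritic UMI, 30 of 38 tdTomato+ and 37 of 45 tdTomato- cells exceeded 10 for the dendritic sum. The median nonclassical sum was 84.4 and 48.6 per 10000 in the remaining cells, against 8.20 and 10.3 in the cells with a dendritic UMI. The label of nonclassical monocytes therefore fitted only a share of the cells the rule took, and the whole set is called rule-selected cells below. No doublet caller was run here, and what part cells caught together with another cell have in the cells over 10 for both sums was not tested.

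**Figure D1:**
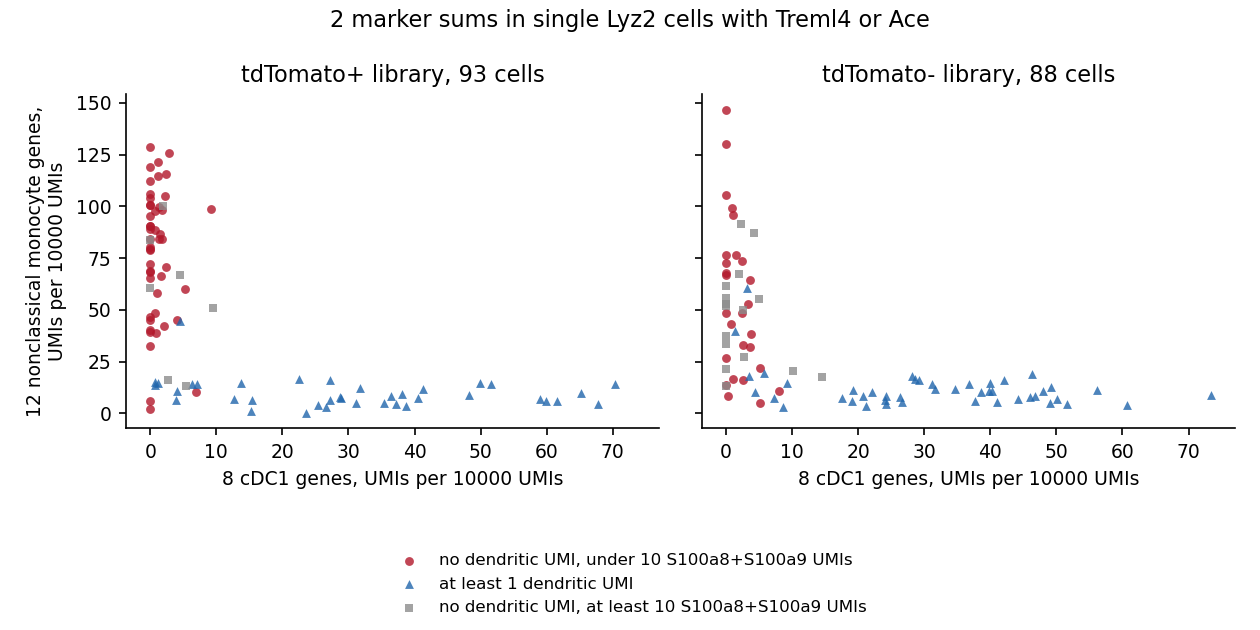
Each point is 1 rule-selected cell, with its summed UMIs of 8 dendritic genes on one axis and of 12 nonclassical monocyte genes on the other, both per 10000 UMIs of that cell; tdTomato+ cells are in the left panel and tdTomato- cells in the right. Cells over 10 for the dendritic sum numbered 30 of 93 in the tdTomato+ and 39 of 88 in the tdTomato- library.

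Values just inside and just outside the thresholds show how far the choice of cells depends on them. With exactly 1 UMI of *Treml4* and *Ace* together there were 25 tdTomato+ and 26 tdTomato- cells, of which 16 and 10 held a dendritic UMI, with *Csf1r* at 84.2 and 177.8 CPM. With none, but everything else in the rule met, there were 82 and 159 cells, with *Csf1r* at 76.4 and 189.2 CPM. With at least 5 UMIs there were 45 and 32 cells, and *Csf1r* stood at 484.1 and 241.8 CPM. Of these, 7 tdTomato+ (15.6%) and 15 tdTomato- cells (46.9%) held a dendritic UMI, against 64.0% and 38.5% at 1 UMI. The share was thus lower at 5 or more UMIs in the tdTomato+ library only. With 1 *Ly6c2* UMI there were 21 and 13 cells, 15 and 6 of them with a dendritic UMI, and with 2 *Ly6c2* UMIs, just outside, 14 and 12 cells, 7 and 7 of them with one. The step *Kdr* = 0, which leaves out cells with endothelial RNA, removed 118 of 216 tdTomato+ cells but 3 of 93 tdTomato- cells. The step on *C1qa*, a macrophage gene, removed 651 of 910 and 224 of 368.

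Over the whole set, *Cx3cr1* and *Ifitm3*, markers of its label, did not stand above classical monocytes. *Cx3cr1*, the fractalkine receptor, had 102.0 CPM (85.9 to 120.3) in the rule-selected tdTomato+ cells, against 121.6 CPM (109.7 to 134.4) in classical monocytes of that library. In the tdTomato- library it had 40.3 CPM (31.3 to 51.1) in the rule-selected cells, against 151.2 CPM (139.4 to 163.7) in classical monocytes. *Ifitm3*, an interferon-induced membrane protein gene, was at least 2-fold lower in the rule-selected cells of both libraries, with log2 ratios of −1.18 and −1.82. In the remaining cells both markers were present. *Cx3cr1* reached 297.1 CPM (247.3 to 354.0) in the remaining tdTomato+ and 204.0 CPM (154.1 to 264.9) in the remaining tdTomato- cells, and *Ifitm3* 4678 and 3537 CPM. Against classical monocytes freed in the same way of cells with dendritic or neutrophil UMIs (139 and 163 cells), neither passed 2-fold: *Cx3cr1* had log2 ratios of 0.86 (0.55 to 1.15) and 0.27 (−0.17 to 0.66), and *Ifitm3* of −0.15 and −0.06. These classical monocytes were not free of the genes of the rule. *Ace* was counted in 64 of 139 tdTomato+ and 43 of 163 tdTomato- cells, and *Treml4* in 59 and 33. What part such cells have in the ratios over classical monocytes, and in those between the sorts, was not tested.

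**Figure D2:**
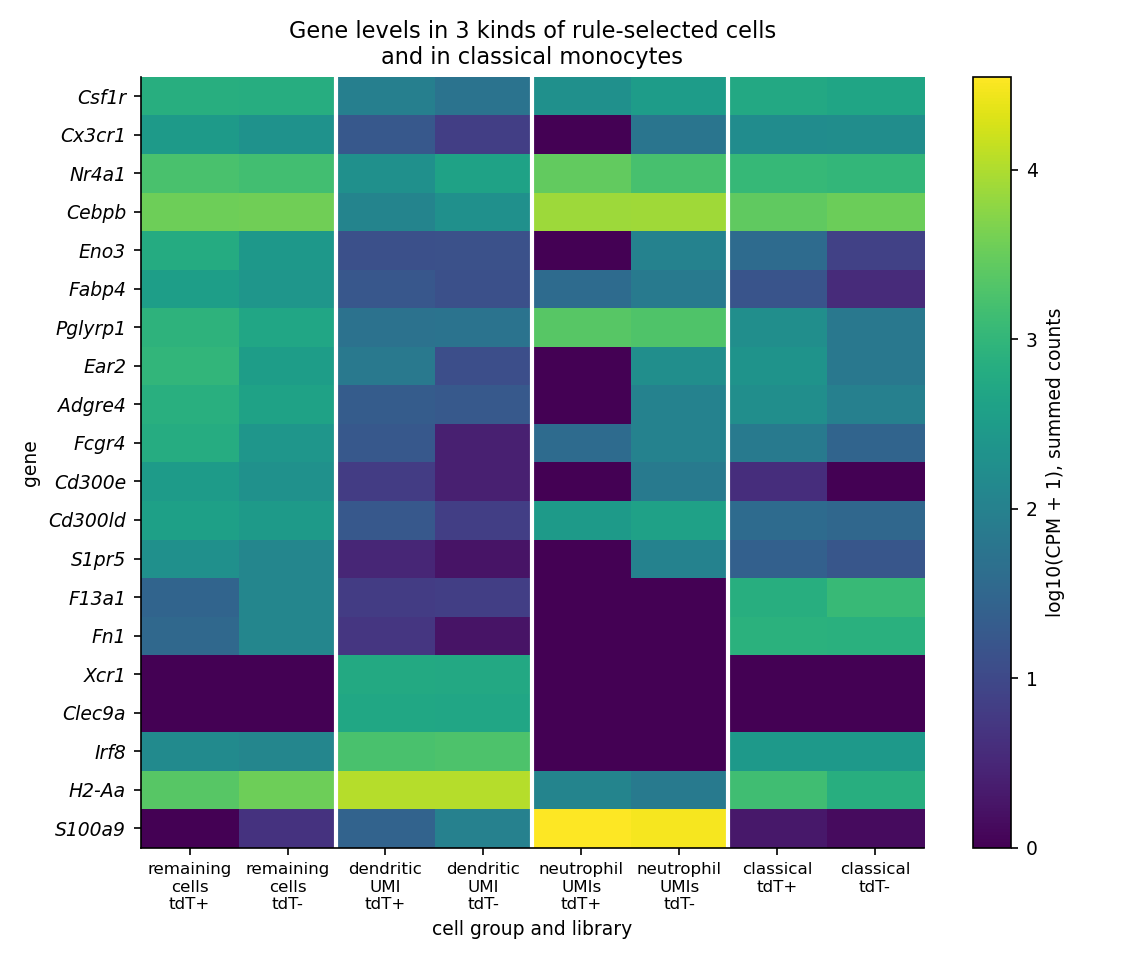
Colour gives log10(CPM + 1) of 20 genes (rows) in the remaining rule-selected cells, those with a dendritic UMI, those with neutrophil UMIs and classical monocytes freed of both (columns), each for the tdTomato+ and the tdTomato- library. *Fcgr4* was high in the remaining cells (656.1 and 247.7 CPM) and low in cells with a dendritic UMI (17.1 and 1.49 CPM). *Xcr1* had 569.0 and 560.1 CPM in cells with a dendritic UMI and is at 0 in the remaining cells by construction.

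The genes of nonclassical identity were then counted in both versions of the comparison with classical monocytes. A gene counted as higher or lower at a ratio of at least 2 with at least 50 CPM in 1 of both populations. Over all rule-selected cells, the tdTomato+ library had 12 of the 26 list genes measured higher and 1 lower, where 5.27% of all 3641 genes were higher and 7.58% lower. For the tdTomato- cells 7 of 23 were higher and 6 lower, where 7.00% of 3744 genes were higher and 9.94% lower. The list's median log2 ratio was 0.81 and 0.20, against −0.016 and −0.086 over all genes. In the remaining cells over classical monocytes freed in the same way, 17 of 26 were higher and 0 lower in each library, with medians of 1.77 and 2.11, where 8.03% and 7.49% of all genes were higher and 7.07% and 6.74% lower. Without the cells with a dendritic UMI alone, 17 and 18 of 26 were higher and 0 lower, where 8.52% and 9.17% of all genes were higher and 6.36% and 7.68% lower. The list includes *Cx3cr1* and *Ifitm3* but no gene of the rule. Up to the comparison between the sorts, values of classical monocytes set beside those of the remaining cells are of the monocytes freed in the same way. Some of its genes are close to what the rule selects, so its direction is a description of the cells chosen.

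Several receptors of that list were higher in the remaining cells. *Cd300e*, an activating receptor of myeloid cells at 11:115051917-115062177 on the minus strand, had 309.0 CPM in 29 of 48 remaining tdTomato+ cells, against 2.88 CPM in the classical monocytes. In the tdTomato- library it had 200.4 CPM in 8 of 27 remaining cells and 0 CPM in the classical monocytes, so no ratio is given there. *Fcgr4*, the Fc receptor that binds IgG2 antibodies, had 656.1 CPM in the remaining tdTomato+ cells against 72.0 CPM in classical monocytes (log2 3.19, 2.90 to 3.49), and 247.7 against 27.8 CPM in the tdTomato- library (3.16, 2.66 to 3.65). Of the other Fc receptors, *Fcgr1*, which binds single antibody molecules with high affinity, was lower in both (−1.41 and −1.28), and *Fcgr3* did not pass 2-fold (−0.35 and −0.27). *Cd300ld* (3.31 and 3.26) and *Spn*, the sialophorin CD43 used to sort nonclassical monocytes (2.74 and 1.50), were also higher in both libraries. *Csf1r* had 715.5 and 692.2 CPM in the remaining cells and did not pass 2-fold (0.36 and 0.57).

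Genes of metabolism and granules in the list showed larger ratios than the regulators named here. *Eno3*, the muscle form of the glycolytic enzyme enolase, had 620.4 CPM in the remaining tdTomato+ cells against 38.4 CPM in classical monocytes (log2 4.01, 3.65 to 4.39), and a log2 ratio of 5.35 (4.61 to 6.24) in the tdTomato- library. *Fabp4*, a fatty acid carrier, had log2 ratios of 4.68 and 6.43. *Pglyrp1*, which binds bacterial peptidoglycan, had 2.33 and 2.88, and *Ear2*, one of a family of near-identical ribonuclease genes among which reads may be shared, 2.23 and 2.34. *Nr4a1*, the receptor these monocytes depend on, had 1764 and 1490 CPM in the remaining cells but passed 2-fold in neither library (0.63, 0.51 to 0.75, and 0.55, 0.39 to 0.69). *Cebpb* (0.35 and 0.12) and *Klf2* (0.12 and 0.13) lay closer still to classical monocytes. Among the regulators *Pou2f2*, the octamer factor OCT2, was higher, with 551.5 and 557.4 CPM in the remaining cells and log2 ratios of 1.47 and 1.55, and so was *Hes1*, a Notch target, with 1.80 and 2.29. On the list of 34 transcription factors, 26 of which were measured, the tdTomato+ library had 2 higher and 3 lower, and the tdTomato- library 3 higher and 2 lower, shares near those of all genes (8.03% and 7.49% higher, 7.07% and 6.74% lower).

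**Figure D3:**
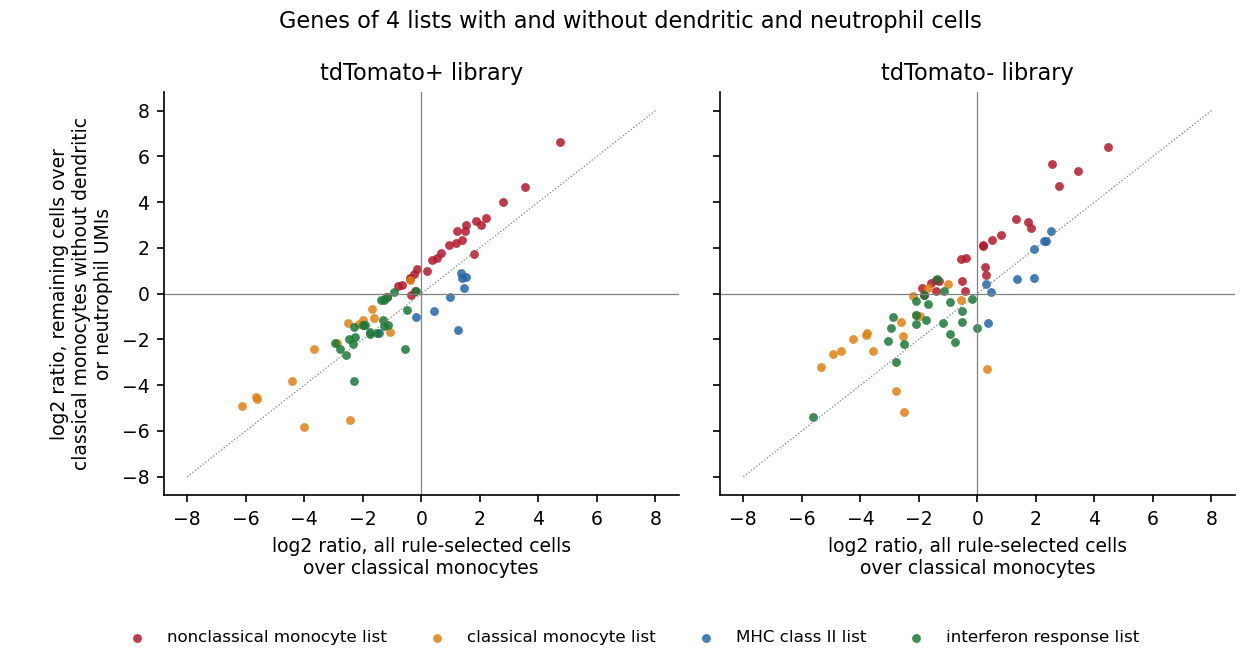
Each point is a gene of 1 of 4 lists, with the log2 ratio of all rule-selected cells over classical monocytes on one axis and that of the remaining cells over classical monocytes freed of dendritic and neutrophil cells on the other, by library. The median of the nonclassical list was 0.81 and 0.20 with all rule-selected cells and 1.77 and 2.11 with the remaining cells.

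Of the genes measured in both libraries, 3.79% were higher and 2.77% lower in the remaining cells in both. The 15 with the largest ratio, by the smaller of both libraries, included genes of lipid handling beside those named. *Cd9*, a tetraspanin, had log2 ratios of 4.60 and 3.94. *Pparg*, the nuclear receptor that drives lipid uptake in macrophages, had 216.3 and 160.3 CPM in the remaining cells (3.45 and 3.11), and *Cd36*, a scavenger receptor for oxidised lipid, 404.1 and 528.2 CPM (3.01 and 4.70). *S1pr5*, a receptor for the blood lipid sphingosine 1-phosphate, had 187.8 and 123.9 CPM (2.96 and 3.03). *Lilra5* (3.63 and 5.97), *Cd300ld3* (4.80 and 4.07), *Slamf9*, *Ets1*, *Ikzf3* and *Slc12a2* were also among the 15. Of the 12 and 11 lipid genes measured, 6 and 5 were higher and 1 and 0 lower, with *Abcg1*, *Cd36*, *Fabp4* and *Pparg* higher in both libraries. Of 11 and 10 survival genes, 3 and 4 were higher and 1 and 0 lower. Per library, 8.03% and 7.49% of all genes were higher and 7.07% and 6.74% lower. *Bcl2*, which blocks cell death, had 237.7 and 174.9 CPM in the remaining cells and ratios of 2.99 and 2.58, and the other genes higher were 2 and 3 near-identical *Bcl2a1* copies, whose reads may be shared.

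Of 17 adhesion genes measured in each library, 7 and 6 were higher and 2 and 2 lower in the remaining cells, where 8.03% and 7.49% of all genes were higher and 7.07% and 6.74% lower. One of the 7 was *Pecam1*, which is also on the endothelial list, of which 9 of 10 measured genes were higher in that library. *Itgb2*, the shared chain of the leukocyte integrins, was higher in both (1.03 and 1.08), and its partner *Itgal*, which pairs with it to form LFA-1, had 0.97 and 1.16. *Itgax* had 1.75 and 5.68 on 68.9 and 163.9 CPM in the remaining cells.

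Most classical identity genes were lower. Of 17 and 18 measured, 0 were higher and 14 and 12 were lower in the remaining cells, with medians of −1.68 and −1.81. Of all genes, 8.03% and 7.49% were higher and 7.07% and 6.74% lower there. Over all rule-selected cells, 0 of the list were higher and 16 and 16 lower. In that comparison 5.27% and 7.00% of all genes were higher and 7.58% and 9.94% lower. The list was chosen as the other end of the pair that the *Ly6c2* threshold separates. *F13a1*, coagulation factor XIII A, had 28.5 CPM in the remaining tdTomato+ cells against 723.5 CPM in classical monocytes (−4.61), and 123.9 against 1156 CPM in the tdTomato- library (−3.20). *Fn1*, fibronectin, had −4.52 and −2.62, *Chil3*, a chitinase-like protein, −2.43 and −1.72, and *Vcan*, a matrix proteoglycan, −4.89 (−10.78 to −2.98) and −2.49 (−4.06 to −1.47), with 1 and 3 cells positive. *Klf4* did not follow (0.58 and 0.41).

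Interferon response genes were lower too, although *Ifitm3* was not. In the remaining cells 0 of 23 and 0 of 22 were higher, and 17 and 13 lower, with medians of −1.45 and −1.20, where 7.07% and 6.74% of all genes were lower. *Isg15* had 71.3 CPM in the remaining tdTomato+ cells against 464.4 CPM in classical monocytes (−2.68), and −2.18 in the tdTomato- library. *Irf7*, which amplifies interferon production, had −1.70 and −1.29. *Cxcl10*, a chemokine induced by interferon, had −5.02 and −2.71, with 3 of 48 and 3 of 27 remaining cells positive. Of the 5 complement genes measured in each library 0 were higher and 3 and 3 lower (against the same shares of all genes), among them *Cfb*, factor B (−1.93, −2.96 to −1.15, and −2.60, −5.98 to −1.04), and *Cfp*, properdin (−2.35 and −1.63).

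The count of MHC class II genes changed with the cells compared. Over all rule-selected cells, 5 of 9 measured genes in the tdTomato+ library and 6 of 10 in the tdTomato- library were higher than in classical monocytes, and 1 and 0 lower. Of all genes, 5.27% and 7.00% were higher and 7.58% and 9.94% lower. The remaining tdTomato+ cells had 0 of 9 higher and 3 lower, and the remaining tdTomato- cells 4 of 9 higher and 1 lower. For them 8.03% and 7.49% of all genes were higher and 7.07% and 6.74% lower. Within the rule-selected cells, 0 of 8 and 0 of 9 were higher and 7 and 7 lower in the remaining cells than in those with a dendritic UMI, where 22.4% and 21.5% of all genes were higher and 14.4% and 14.9% lower. *H2-Aa* had 2294 and 3578 CPM in the remaining cells, against 1447 and 718 CPM in classical monocytes (0.67 and 2.32). The tdTomato- classical monocytes also held progenitor-like granule genes, *Mpo* at 1854 CPM and *Prtn3* at 1589 CPM, which were at 0 and 3.64 CPM in the remaining cells of that library. Their part in the ratios was not tested. Of the 6 cell cycle genes measured there, 5 were lower in the remaining cells, where 6.74% of all genes were lower. *Mki67* was counted in 3 of 27 of them.

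Compared with the cells with a dendritic UMI, 24 of 26 nonclassical genes were higher in the remaining cells in each library, and 1 and 0 lower. Of all genes, 22.4% and 21.5% were higher and 14.4% and 14.9% lower in this comparison. Classical identity genes were higher as well, 10 of 10 and 12 of 12 measured, so that this comparison does not single out the nonclassical genes. The exception was *Itgax*, CD11c, an integrin chain that dendritic cells also use, with 68.9 against 171.1 CPM in the tdTomato+ library. Of 10 Fc receptor and uptake genes measured in each, 9 and 9 were higher, and of 9 cell cycle genes in each, 9 and 8 were lower. The median remaining cell held UMIs of 22 of the 26 list genes in the tdTomato+ library and 18 in the tdTomato- library, against 10.5 and 10 in the deeper cells with a dendritic UMI and 15 and 13 in classical monocytes freed of dendritic and neutrophil UMIs. Thinned to 2000 UMIs per cell, which left out 2 remaining tdTomato+ cells, the medians were 16 and 12 in the remaining cells against 3 and 3.

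The cells with neutrophil UMIs were shallow. *S100a9* reached 35459 CPM in the 7 tdTomato+ and 30470 CPM in the 16 tdTomato- cells, against 0 and 3.64 CPM in the remaining cells, a contrast that holds by construction. *Cxcr2*, a neutrophil chemokine receptor not used for the split, had 1578 CPM in 7 of 7 and 1085 CPM in 14 of 16 of them, against 0 and 10.9 CPM in the remaining cells. *Treml4* reached 300.5 CPM (129.7 to 592.1) and 293.3 CPM (179.1 to 452.9) there, and *Ace* was counted in 0 of 7 and 2 of 16. In neutrophils taken without the *Treml4* step, with at least 10 UMIs each of *S100a8* and *S100a9*, *Treml4* had 65.0 and 60.6 CPM and was counted in 14 of 55 and 25 of 100 cells. *Retnlg*, *S100a9* and *S100a8* were among the 15 genes with the largest ratio of all rule-selected cells over classical monocytes, where 4.09% of genes were higher and 5.43% lower in both libraries. *S100a9* and *S100a8* had log2 ratios of 4.85 and 3.55 in the tdTomato+ library, and *Retnlg* had 55.0 and 183.8 CPM in the rule-selected cells against 0 and 1.98 CPM in classical monocytes. Among the same 15 stood *Itgae*, *Cd207* and *Btla*, with at most 7.13 CPM in the remaining cells, and *Cd9*, *Eno3* and *Fabp4*, which the remaining cells carried.

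Free RNA was read from B cells, taken with at least 2 *Cd79a* UMIs. *Treml4* or *Ace* was counted in 1.11% of 270 tdTomato+ B cells (0.230 to 3.21, median 6423 UMIs) and in 0.575% of 348 tdTomato- B cells (0.0697 to 2.06, median 5828.5 UMIs), and both conditions on *Lyz2* and on *Treml4* or *Ace* were met by 0.741% and 0.287%. Since the rule asks for one of both genes, their detection in the rule-selected cells is not set against these shares. A γδ T cell receptor contig was found on 0 of 93 and 0 of 88 rule-selected barcodes, which at a floor of 3 counts allows a share of up to 3.23% and 3.41%. The rule leaves out cells with more than 1 *Cd3* UMI, a step that removed 41 and 49 cells, so a low count holds partly by construction. Of the cells with T cell transcripts 57 of 2765 in the tdTomato+ library (2.06%) and 2454 of 14050 in the tdTomato- library (17.5%) had a contig, so that a count of 0 says little for the tdTomato+ cells. Both libraries shared 84 barcode sequences, and 0 of the rule-selected cells had one.

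Between the sorts, the makeup of the set differed first. The remaining cells were 0.274% of tdTomato+ cells (0.202 to 0.363) and 0.149% of tdTomato- cells (0.0979 to 0.216), whereas the cells with a dendritic UMI were 0.217% (0.154 to 0.298) and 0.248% (0.181 to 0.331). These intervals cover counting error only. The shares also depend on what else was sorted: cells with T cell transcripts were 15.8% of the tdTomato+ and 77.3% of the tdTomato- library. Among cells with at least 2 *Lyz2* UMIs, the remaining cells were 2.32% and 1.42%, and the cells with a dendritic UMI 1.84% and 2.37%. Over all rule-selected cells, the tdTomato+ library had 67 genes at least 2-fold above (1.93% of 3474) and 48 at least 2-fold below (1.38%) the tdTomato- library. Of the 26 nonclassical genes, 11 were higher and 0 lower, with a median of 0.91 against 0.03 over all genes. In the remaining cells alone 3 were higher and 1 lower, with a median of 0.41, where 5.23% of 3688 genes were higher and 4.96% lower. Of the 11 genes, 8 did not pass 2-fold once the dendritic and neutrophil cells were left out.

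The 3 genes that passed were *Ear2*, *Fcgr4* and *Eno3*. *Ear2* had 996.0 CPM (902.9 to 1096) in the remaining tdTomato+ cells against 335.2 CPM (270.2 to 411.1) in the remaining tdTomato- cells (log2 1.57, 1.24 to 1.91). *Fcgr4* had 656.1 against 247.7 CPM (1.40, 1.02 to 1.81) and *Eno3* 620.4 against 269.6 CPM (1.20, 0.82 to 1.60). In the cells with a dendritic UMI, 3 of the 12 list genes measured were higher and 1 lower, where 0.922% and 1.64% of all genes were. In classical monocytes 5 of 18 were higher and 0 lower, where 0.995% and 0.967% of all genes were. There *Ear2* had 151.7 CPM in the tdTomato+ and 49.8 CPM in the tdTomato- library (1.60, 1.37 to 1.85) and *Fcgr4* 58.1 and 20.8 CPM (1.48, 1.10 to 1.87), so both genes differed there by about as much. *Eno3* had 28.2 against 5.21 CPM in classical monocytes, under the 50 CPM that a call needs. Without the 14 tdTomato+ and 1 tdTomato- remaining cells that held an endothelial UMI, *Ear2* had 2.01, *Fcgr4* 1.56 and *Eno3* 1.51, and *Pglyrp1* (1.10) and *Clec4a1* (1.08) passed as well, where 7.14% of all genes were higher and 6.22% lower. *Cx3cr1* (0.54), *Csf1r* (0.05) and *Nr4a1* (0.24) did not pass in the remaining cells. *Itgax* was lower by CPM, at 68.9 against 163.9 CPM (−1.24), but was counted in 21 of 48 remaining tdTomato+ and 9 of 27 remaining tdTomato- cells, where 1 cell held 12 of the 45 UMIs.

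**Figure D4:**
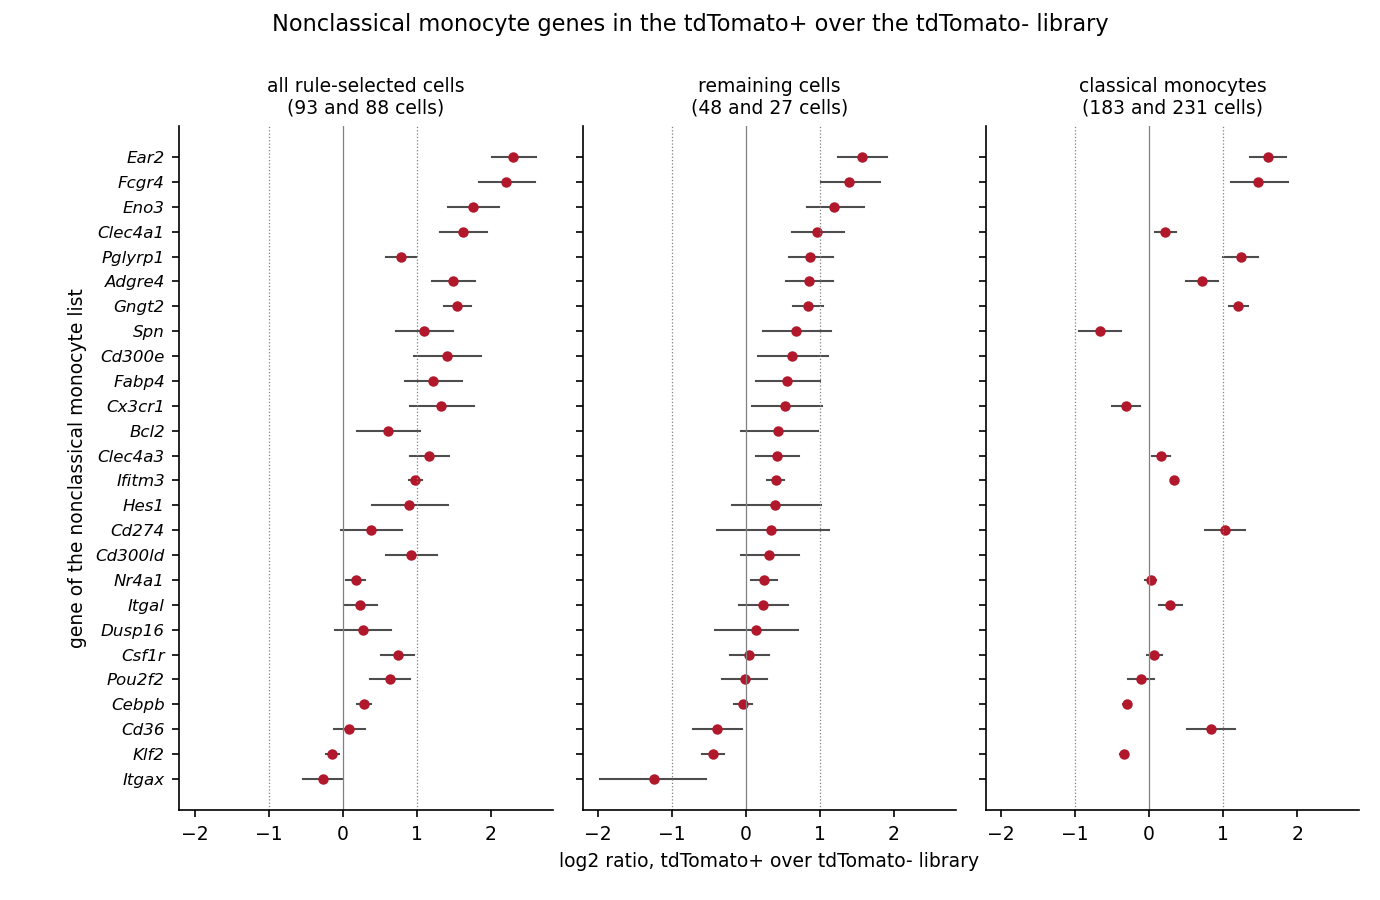
Points give log2 ratios, tdTomato+ over tdTomato-, for genes of the nonclassical list with at least 50 CPM in 1 library, in all rule-selected cells, in the remaining cells and in classical monocytes, with 95% counting intervals as bars and no replicate behind them. *Ear2* had 2.30 over all rule-selected cells, 1.57 in the remaining cells and 1.60 in classical monocytes.

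Counted by cells, the difference in *Ear2* was spread over many of them. *Ear2* was counted in 43 of 48 remaining tdTomato+ cells (89.6%, 77.3 to 96.5) and 14 of 27 remaining tdTomato- cells (51.9%, 31.9 to 71.3), and after thinning to 2000 UMIs in 65.2% and 33.3%. *Cd300e* was counted in 60.4% (45.3 to 74.2) and 29.6% (13.8 to 50.2). *Csf1r* was counted in 45 of 48 and 27 of 27. The classical genes *F13a1* and *Ccr2* were counted in 3 and 18 of 48 tdTomato+ cells, against 10 and 15 of 27 tdTomato- cells. Whether the makeup of the remaining cells differs between the sorts was not tested. Of the 12 classical identity genes measured between the remaining cells, 1 was higher (*Mgst1*) and 2 were lower in the tdTomato+ cells (*F13a1* and *Fn1*), with a median of −0.088, where 5.23% of all genes were higher and 4.96% lower. Their log2 ratios were −2.08 for *F13a1* and −1.87 for *Fn1*, and *Lpl*, lipoprotein lipase, had −2.53. In classical monocytes the same ratios were −0.73 for *F13a1*, 0.08 for *Fn1* and −0.42 for *Lpl*, none past 2-fold.

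The genes with the largest ratios between the sorts were of several kinds. Over all rule-selected cells, *Igfbp7* (2.94), *Apoc2* (1.81), *Acp5* (1.80), *Fabp5* (1.76), *Smpdl3b* (1.74), *Ms4a6d* (1.70) and *Cd69* (1.70) were the other genes at the high end beside *Ear2*, *Fcgr4* and *Eno3*. At the low end stood the haemoglobin genes, with 12 UMIs in the tdTomato+ cells against 16674 in the tdTomato- cells, of which 2 cells held 8586 and 8087. *Cxcl11* (−4.64, −7.16 to −3.27) came from 1 tdTomato- cell, and *Cxcl10* (−2.32), *Lsamp* (−2.05), *Tpm3-rs7*, *H1f1* and *H1f5* followed. In the remaining cells the high end was endothelial, with *Ptprb* at 116.5 CPM and *Clec4g* at 90.3 CPM in the tdTomato+ cells against 0 and 0 CPM in the tdTomato- cells. *Stab2* itself was counted in 9 of 48 remaining tdTomato+ cells (52.3 CPM) and in 1 of 27 tdTomato- cells (3.64 CPM). The low end of the remaining cells held the haemoglobin genes, *Alas2* and *Bpgm*. It also held *Lsamp* (1 tdTomato+ against 102 tdTomato- UMIs), *Cd226* (0 against 21), *Timd4* (0 against 16) and *Txk* (0 against 15).

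Markers of other cells stood beside these results as follows. The 14 endothelial genes summed to 545 and 257 CPM in all rule-selected cells, 927 and 153 CPM in the remaining cells and 211 and 111 CPM in classical monocytes. Of those 14 genes 6 were at 0 in the remaining tdTomato- cells, and *Stab2*, *Cdh5* and *Egfl7* were at 0 in the remaining cells without an endothelial UMI, by construction. An endothelial UMI was held by 35 of 93 tdTomato+ (37.6%) and 10 of 88 tdTomato- rule-selected cells (11.4%). The 12 Kupffer genes summed to 283 and 976 CPM in the remaining cells, with *Timd4*, *Vsig4* and *C6* at 0 in the tdTomato+ cells and *Timd4* in 1 tdTomato- cell, against 26116 CPM in tdTomato+ Kupffer cells. The 7 hepatocyte genes summed to 66.6 and 0 CPM and the 7 platelet genes to 0 and 0 CPM. The part of endothelial and macrophage RNA in the differences between the sorts was not tested, beyond the ratios without endothelial UMIs given for *Ear2*, *Fcgr4* and *Eno3*.

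The promoter windows were searched for 6 motifs on both strands, in the 250 bases before the start, with 27025 promoters in the RefSeq table. Of the 15 genes highest in the remaining cells over classical monocytes, 11 have an entry, and AGAGGAA was in 5 of them (45.5%), *Cd300ld*, *Cd300ld3*, *Fcgr4*, *Lilra5* and *Slamf9*, as well as in *Treml4* and *Ace*. GAGGAAGT was in 4 of the 11 (36.4%). Of the 15 genes highest in the cells with a dendritic UMI over the remaining cells, 11 have an entry, and 0 held either. Over all promoters AGAGGAA was in 8.65% and GAGGAAGT in 2.44%. The NR4A1 element AAAGGTCA and the C/EBP core TTGCGNAA were in 0 of the 11 and in 1.31% and 0.670% of all promoters. The EICE core was in 1 (*Lilra5*, against 2.38% of all) and the ISRE core in 1 (*Fcgr4*, against 3.04% of all). A match says that the letters are there, and neighbouring *Cd300* genes share ancestry, so the 11 are not independent.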

How the data were processed

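CD45+ liver cells of 2 sorts, tdTomato+ and tdTomato-, were profiled in 1 gene expression library each, with 1 γδ T cell receptor library each. The authors deposited raw UMI counts per gene and barcode from Cell Ranger (10.0.0 in the matrix header, with mm10 in the submitters' notes), in 33696 genes, and a list of receptor contigs, used only as present or absent. The libraries held 17957 and 18444 barcodes and 203366009 and 156771260 UMIs, with medians of 8955 and 7128 per barcode. Barcodes needed 300 detected genes and no more than 10% of counts in mitochondrial genes, which left 17509 and 18173 cells. No doublet caller was run.

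CPM, percent values and log2 ratios were computed here from the deposited counts. Counts were summed over the cells of a population, 0.5 counts were added for ratios, and a gene counted as changed at a ratio of at least 2 with at least 50 CPM in 1 of both. Genes of the rule were left out. Intervals are exact 95% Poisson (levels), Clopper-Pearson (shares) and conditional binomial (ratios) intervals. They cover counting error only, and with 1 library per sort no test was made. For all rule-selected cells over classical monocytes in each library, the ratios and calls were tested on simulated data.

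The genes named are those of the rule and the markers, members of 28 gene lists (16 of functions, 12 of other cell types), the 15 genes each way with the largest ratio over classical monocytes in both libraries and the 10 each way between libraries. The members and lists were chosen with earlier results of these data known. Split populations, the promoter genes, and the further genes printed from these lists were chosen after their values had been seen. Alternatives were 12 planned and 2 added after seeing the data. Promoters came from RefSeq (GRCm38.p6). The scripts used scipy 1.17.1 for intervals, pandas 2.3.3 and numpy 2.4.6 for tables, and matplotlib 3.10.9 for figures, under python 3.11.15.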

Additional observations from a re-analysis of the deposited data

Results flagged for a closer look

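Haemoglobin genes differed in direction between the libraries. In the rule-selected cells over classical monocytes the log2 ratio of *Hba-a1* was −7.70 (tdTomato+ library) and 7.95 (tdTomato- library), that of *Hbb-bs* −7.40 and 7.93, and that of *Hbb-bt* −8.53 and 7.64. *Hba-a1* and *Hbb-bt* had 0 counts in the rule-selected tdTomato+ cells, so those 2 values depend on the 0.5 counts added. In the tdTomato+ library 1 classical monocyte held 5519 of the 5547 haemoglobin UMIs of its population, and in the tdTomato- library 2 rule-selected cells held 8586 and 8087 of 16674. Without cells of 100 or more haemoglobin UMIs, the 4 haemoglobin genes together stood at 8.68 CPM in the rule-selected tdTomato+ cells against 8.96 CPM in classical monocytes, and at 0.610 CPM against 1.99 CPM in the tdTomato- library. The difference between the libraries was not tested.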

How the results depend on the processing

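Of 84 counts of changed genes, 60 stayed within 1.5 times and 24 did not, and of 630 single-gene ratios 393 moved little, 230 moved more and 7 changed sign. The share of rule-selected cells was 0.388% (tdTomato+) and 0.341% (tdTomato-) with at least 2 *Treml4* and *Ace* UMIs, 0.314% and 0.237% without cells with a dendritic UMI, and 0.274% and 0.149% without these and neutrophil cells. It was 0.411% with *Ly6c2* at 0 and 0.331% without endothelial UMIs in the tdTomato+ library, and 0.385% without neutrophil cells in the tdTomato- library. Against classical monocytes, genes higher in the tdTomato+ library numbered 316 without dendritic cells, 295 without dendritic and neutrophil cells, 400 after thinning and 3301 with no minimum level, and genes lower 1803 with no minimum. In the tdTomato- library 449 were higher after thinning and 2957 with no minimum, and 225 were lower by the mean CPM of single cells and 2364 with no minimum. Between libraries, genes higher in tdTomato+ cells numbered 136 with at least 2 *Treml4* and *Ace* UMIs, 124 with *Ly6c2* at 0, 149 without endothelial, 182 without dendritic, 118 without cells over 3 times the median UMIs, 193 without dendritic and neutrophil cells, 267 after thinning and 2498 with no minimum. Genes lower numbered 119 without endothelial, 179 without dendritic, 85 without cells over 3 times the median, 183 without dendritic and neutrophil cells, 301 after thinning, 101 by the mean of single cells and 2230 with no minimum. With no minimum, genes of 1 count enter, and for the other settings the cause of the change in counts was not tested. The sign of *Cx3cr1* in the tdTomato- library turned without dendritic cells (0.0629, and 0.27 also without neutrophil cells), as did *Csf1r* (0.42 and 0.57). *S100a9* in the tdTomato+ library turned without neutrophil cells (−1.11, and −0.0132 without both), and *Cx3cr1* between libraries after thinning (−0.0815). These signs turned when cells were left out or thinned, and the cause was not tested. For *S100a9*, the cells left out were chosen partly by its own UMIs, so that its level falls by construction.

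No paired analysis was possible because each sort has 1 library, and no library was left out for the same reason. The 27 remaining tdTomato- cells held 274491 UMIs in all, so that a gene of 50 CPM rests on few counts there, which limits what can be detected in them.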
